A study of Mus musculus with 8 samples.

Results

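Cell cycle and DNA replication transcripts were measured in bulk RNA of mouse bone marrow macrophages and plasma cells through 36 genes, chosen as listed symbols and looked up in both count tables. All 36 were among the 47643 identifiers of the macrophage table and among the 52458 entries of the plasma cell table. They were set apart as 17 replication genes, which act up to and during DNA synthesis, and 19 mitotic genes. The mitotic genes act mostly in entering mitosis, in chromosome segregation and in leaving mitosis. Gene coordinates are those of GENCODE M21 on GRCm38. Every member had counts in all 8 libraries, and all 36 passed the low-count filter of the test, which kept 15522 genes.

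The study asked how macrophages of the bone marrow differ when they touch multiple myeloma, a cancer of plasma cells. Vk*MYC myeloma cells, which come from a mouse model driven by a MYC transgene, carried green fluorescent protein (GFP), were purified on the plasma cell marker CD138 and were placed into the tibia of WT B6 mice. The sort for tumour-associated macrophages (TAM) took F4/80 high, CD11b low cells and split them on GFP: TAM-IC were GFP positive and labelled as in contact with myeloma cells, and TAM-NIC were GFP negative and labelled as not in contact. Macrophages of naive mice were the controls. All samples are labelled WT and B6 and received no treatment, and the sources used here give neither age nor the number of animals behind a sample. Each macrophage group had 2 libraries, and the TAM libraries are labelled mouse 1 and mouse 2. A pair of plasma cell libraries was also sequenced: the design names sorted myeloma cells and polyclonal plasma cells of naive mice, but the labels do not say which library is which. These were therefore neither averaged nor tested.

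Cells copy their DNA only after a period of licensing, in which Cdc6 and Cdt1 load the ring-shaped Mcm helicase onto origins. Transcription factors of the E2F family, held back by retinoblastoma proteins in resting cells, switch on the genes for helicase subunits, nucleotide supply and cyclin E. Genes of mitosis come on later, through CCAAT boxes bound by NF-Y and through the cell cycle genes homology region (CHR), an element read by the DREAM and MuvB complexes, and their proteins are destroyed at the end of mitosis by the anaphase-promoting complex. Most mature tissue macrophages are out of the cell cycle, although resident macrophages can divide in place, while progenitors in bone marrow divide often.

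Both regulatory elements are visible as letters in the members' promoters. RefSeq promoters (GRCm38.p6, 250 bases before to 50 bases after the annotated start) were found for 31 members, 15 of replication and 16 of mitosis; Aurkb, Ccna2, Ccne2, Mcm4 and Tpx2 had no entry. The E2F site was searched on both strands in 4 forms, written TTCCCGC for the first, TTCGCGC for the second, TTGGCGC for the third and TTGCCGC for the last. At least 1 of these was present in 8 of 15 replication promoters (53.3%) and in 3 of 16 mitotic ones (18.8%), against 9.69% of all 27025 promoters of the table. The CHR (TTTGAA or TTCGAA, either strand) was present in 13 of 16 mitotic promoters (81.2%), in 3 of 15 replication promoters and in 19.4% of all promoters. Without the 50 bases after the start, the CHR count in mitotic promoters was 8, against 17.4% of all promoters. The E2F count in replication promoters was then 6, against 7.97% of all promoters. The CCAAT box was in 15 of 16 mitotic promoters (93.8%), in 9 of 15 replication promoters and in 37.9% of all. These forms can overlap one another, a match is a description of letters and not a bound site, and no binding was measured here.

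The 4 promoters below belong to the 2 replication and the 2 mitotic members with the highest level per kilobase whose promoter held the motif of their class. Rrm2 (chr12:24708004-24708303, plus strand) and Mcm6 (chr1:128359656-128359955, minus strand) are printed with E2F forms in capitals. Ccnb2 (chr9:70421505-70421804, minus strand) and Cdc20 (chr4:118437294-118437593, minus strand) are printed with the CHR in capitals. All are read 5′ to 3′ along the gene.
Rrm2: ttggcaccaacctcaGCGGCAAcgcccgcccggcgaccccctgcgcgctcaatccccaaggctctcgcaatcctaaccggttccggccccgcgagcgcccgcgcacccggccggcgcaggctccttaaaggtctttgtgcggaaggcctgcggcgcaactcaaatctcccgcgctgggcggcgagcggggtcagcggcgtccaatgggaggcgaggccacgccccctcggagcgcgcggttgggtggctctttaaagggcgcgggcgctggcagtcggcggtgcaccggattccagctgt
Mcm6: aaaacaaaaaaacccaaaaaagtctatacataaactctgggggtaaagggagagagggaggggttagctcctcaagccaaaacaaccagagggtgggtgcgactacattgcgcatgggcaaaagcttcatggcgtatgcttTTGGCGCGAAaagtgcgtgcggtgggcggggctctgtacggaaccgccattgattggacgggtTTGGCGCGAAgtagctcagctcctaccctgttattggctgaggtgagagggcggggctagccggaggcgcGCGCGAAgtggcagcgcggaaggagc
Ccnb2: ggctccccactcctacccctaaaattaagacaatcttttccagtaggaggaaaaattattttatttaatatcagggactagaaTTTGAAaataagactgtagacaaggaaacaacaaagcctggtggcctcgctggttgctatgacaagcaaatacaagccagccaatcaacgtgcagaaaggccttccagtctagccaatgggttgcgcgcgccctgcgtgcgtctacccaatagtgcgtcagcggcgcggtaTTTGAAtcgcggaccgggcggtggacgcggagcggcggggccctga
Cdc20: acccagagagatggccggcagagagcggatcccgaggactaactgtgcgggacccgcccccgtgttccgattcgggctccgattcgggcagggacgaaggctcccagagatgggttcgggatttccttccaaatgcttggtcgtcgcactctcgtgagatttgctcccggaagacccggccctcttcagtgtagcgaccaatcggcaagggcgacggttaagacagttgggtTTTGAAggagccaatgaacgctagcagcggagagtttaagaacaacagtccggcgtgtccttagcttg

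Rrm2 held 1 E2F form, beginning 235 bases before the start. Mcm6 held 5 matches, of which 4 formed 2 overlapping pairs beginning at -109 and -46 from the start, and the last lay at 24 past it. These positions count from the RefSeq start, and the GENCODE M21 gene of Mcm6 begins further downstream. Of the printed promoters, only that of Mcm6 had an end not found in an M21 transcript of its gene. Ccnb2 held a CHR at -167 and another 4 bases past the start, and Cdc20 held 1 at -18. Promoters of Mcm7, Cdk1 and Mki67 held both elements, and those of E2f1, Tyms, Ccne1, Tk1 and Birc5 held none of the 3 motifs searched.

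Macrophage libraries held 28887725 to 46873056 counts, so that a count of 0 would allow up to 0.0640 to 0.104 on the counts-per-million scale (CPM, scaled to the total count of the library), and the 2 plasma cell libraries held 81792139 and 38343783. Macrophage markers were present in all 6 macrophage libraries, with a summed level of 22829 and 11509 CPM in the naive libraries, 23446 and 13828 CPM in TAM-NIC and 6251 and 6229 CPM in TAM-IC. Neutrophil markers summed to 50614 and 74975 CPM in the naive libraries, 7450.3 and 18815 CPM in TAM-NIC and 49879.5 and 29476 CPM in TAM-IC, above the macrophage sum in 5 of 6 libraries. Immunoglobulin genes took 9.13% of the counts of TAM-NIC 2 and 0.167% to 0.634% of the other macrophage libraries. Xist, the RNA of the inactive X chromosome, stood at 40.4 CPM in TAM-NIC 2 and had 0 counts in TAM-IC 2, where the Y-linked Ddx3y stood at 88.4 CPM, so the libraries that share the number 2 did not come from 1 animal. In every macrophage library but TAM-IC 2, Xist stood at 17.5 to 53.8 CPM and Ddx3y at 0 to 0.258 CPM. The 2 TAM-IC libraries thus differed in these markers of sex. The part of this in their replicate difference and in the TAM-IC comparisons was not tested. Nothing says whether naive libraries came from separate animals, and p-values measure only the spread between these libraries.

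Members ranked across a wide range of levels when counts were set per kilobase of exons. Rrm2, a subunit of the enzyme that makes deoxyribonucleotides, led with 63.2 ± 21.5 CPM per kb (SD over the 6 macrophage libraries), followed by Ccnb2, a partner of the mitotic kinase Cdk1, with 58.9 ± 19.2 CPM per kb. These neighbours differed by less than their spread, as did Mcm6, a helicase subunit (50.5 ± 15.3 CPM per kb), and Cdc20, an activator of the anaphase-promoting complex (48.5 ± 14.7 CPM per kb). At the low end stood Tyms, which makes thymidylate (3.64 ± 1.40 CPM per kb), and the kinetochore protein Cenpf (2.59 ± 1.05 CPM per kb). Pcna, the sliding clamp of DNA polymerase, had the narrowest spread relative to its mean of all 36 members, at 15.1 ± 1.03 CPM per kb.

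The highest values of most members came from 1 library. Naive 2 had the highest CPM of the 6 macrophage libraries in 28 of 36 members, 12 of replication and 16 of mitosis. TAM-NIC 2 was highest in 5, all of replication, and TAM-IC 1 in 3, all of mitosis. The lowest value was that of TAM-NIC 1 in 16 members, 13 of them mitotic, of TAM-IC 2 in 13, of which 11 were replication genes, and of TAM-NIC 2 in 7. In the heat map of members by library this appears as a column of high values in naive 2 and low columns in TAM-NIC 1 and TAM-IC 2.

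**Figure D1:**
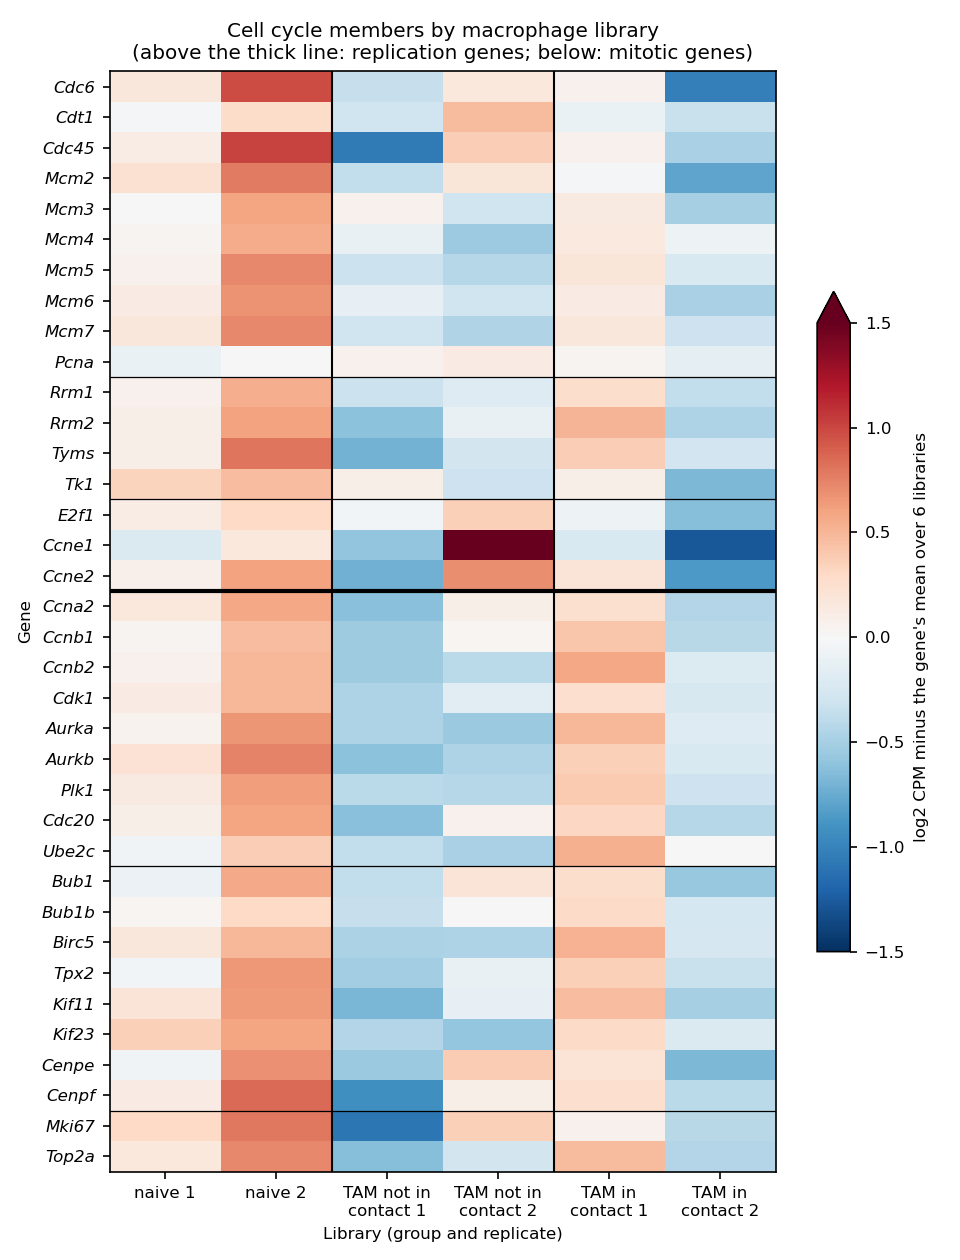
Each row is 1 of the 36 members and each column 1 macrophage library; colour gives log2 CPM minus the gene's mean over the 6 libraries, with the replication genes above the thick line and mitotic genes below it. Naive 2 is the reddest column (highest in 28 of 36 members), and Ccne1 in TAM-NIC 2 runs past the end of the scale.

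Libraries of 1 group differed in nearly all members at once. In naive macrophages replicate 2 exceeded replicate 1 in 36 of 36 members, by a median ratio of 1.42 (from 1.07 for Pcna to 1.88 for Cdc45), while the median over all genes tested was 1.03. In TAM-IC replicate 1 exceeded replicate 2 in 36 of 36 members, by a median ratio of 1.59 (from 1.13 for Pcna to 2.14 for Cdc6), again against 1.03 over all genes. In TAM-NIC replicate 2 exceeded replicate 1 in 26 members, with a median ratio of 1.30, against 1.05 over all genes. The range was from 0.740 for Mcm4 to 6.72 for Ccne1. Of all genes tested, the same ratios were above 1 in 53.8% for naive, 53.7% for TAM-IC and 52.6% for TAM-NIC. The 10 members below 1 in TAM-NIC were Mcm3, Mcm4, Mcm5, Mcm6, Mcm7 and Tk1 of the replication genes and Aurka, Kif23, Plk1 and Ube2c of the mitotic genes.

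Summed over their class, replication genes stood at 1588 and 2298 CPM in the naive libraries, 1249.5 and 1419.7 CPM in TAM-NIC and 1682 and 1107 CPM in TAM-IC. Mitotic genes summed to 1524 and 2131 CPM in the naive libraries, 948 and 1264 CPM in TAM-NIC and 1815 and 1108 CPM in TAM-IC. In both classes naive 2 was the highest library, TAM-IC 1 came second, and both TAM-NIC sums lay below both naive sums. All members together took 0.220% to 0.443% of a macrophage library's counts. In these bulk libraries fewer dividing cells and less RNA per dividing cell cannot be told apart.

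The balance of the classes within a library does not depend on how libraries are scaled to each other. The ratio of summed mitotic to summed replication CPM was 0.759 and 0.891 in the TAM-NIC libraries, 0.959 and 0.927 in the naive libraries and 1.08 and 1.00 in the TAM-IC libraries. The 3 groups did not overlap in this ratio, although the sums of TAM-IC overlapped those of both other groups. The replication sum of TAM-NIC 2 held Ccne1 at 84.1 CPM, against 7.78 to 21.1 CPM in the other macrophage libraries. The gap between TAM-NIC 2 and the naive libraries in this ratio depended on that gene. With 2 libraries in each group no test of the ratio was made.

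Markers of other dividing or admixed cells were read beside these sums. Neutrophil progenitor markers (8 genes, among them Mpo and Elane, granule enzymes of promyelocytes) summed to 3273 and 9971 CPM in the naive libraries, 2387 and 1465 CPM in TAM-NIC and 4047 and 1527 CPM in TAM-IC. Markers of stem and early progenitor cells (6 genes, among them Kit and Cd34) summed to 185 and 286 CPM in the naive libraries, 72.4 and 113 CPM in TAM-NIC and 290.1 and 169 CPM in TAM-IC. In each of these lists, as in both member classes, replicate 2 was the higher naive library and replicate 1 the higher TAM-IC library. The neutrophil sums above and the monocyte, plasma cell and B cell sums below had this order too. In TAM-NIC the neutrophil progenitor sum was higher in replicate 1. Both member classes and the stem and early progenitor sum were higher there in replicate 2. Erythroblast markers (15 genes) summed to 607 and 451 CPM in the naive libraries, 233 and 315 CPM in TAM-NIC and 244 and 116 CPM in TAM-IC, with naive 1 the highest. Plasma cell markers (10 genes) summed to 478 and 568 CPM in the naive libraries, 804 and 4887 CPM in TAM-NIC and 478 and 158 CPM in TAM-IC, with TAM-NIC 2 far above the rest. Eosinophil and basophil markers (8 genes) summed to 1445 and 3242 CPM in the naive libraries, 69.3 and 148 CPM in TAM-NIC and 1241 and 1592 CPM in TAM-IC, and markers of B cells and their precursors (13 genes) to 464 and 588 CPM in the naive libraries, 153 and 181 CPM in TAM-NIC and 124 and 96.3 CPM in TAM-IC. Like both member classes, these 2 lists were lower in both TAM-NIC libraries than in both naive libraries. So were the neutrophil progenitor, stem and early progenitor, erythroblast and neutrophil sums, while the plasma cell sums were higher. Eosinophil and basophil, stem and early progenitor and neutrophil sums were also lower in both TAM-NIC libraries than in both TAM-IC libraries. Monocyte markers (8 genes) summed to 4067 and 6887 CPM in the naive libraries, 2084 and 4099.8 CPM in TAM-NIC and 7531 and 5938 CPM in TAM-IC. For monocyte markers TAM-NIC 1 was lowest, and both TAM-NIC libraries lay below both TAM-IC libraries. No marker of these 7 lists was at 0 in every macrophage library, and the part of these cells in the member levels was not tested.

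**Figure D2:**
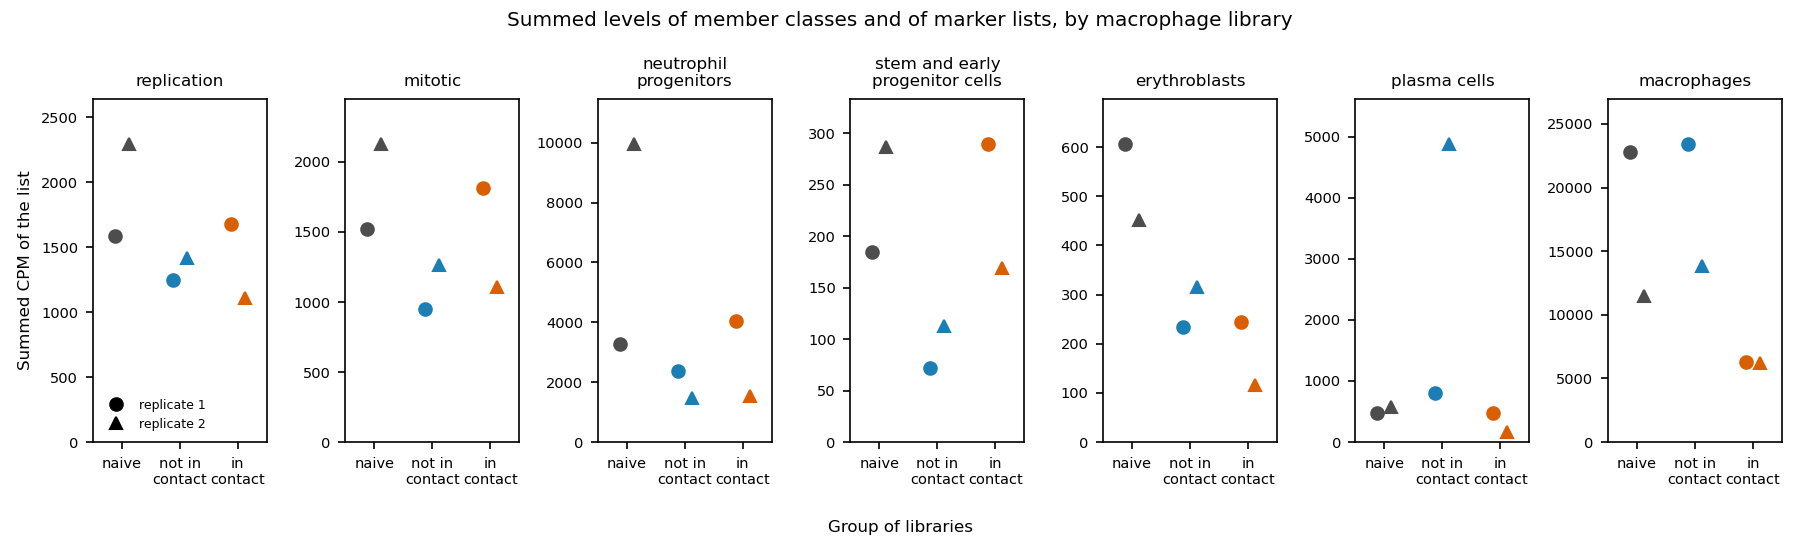
Each panel gives the summed CPM of 1 list in the 6 macrophage libraries, grouped as naive, TAM not in contact and TAM in contact, with circles for replicate 1 and triangles for replicate 2; vertical scales differ between panels. Naive 2 is highest for replication genes, mitotic genes and neutrophil progenitor markers, and TAM-NIC 2 is highest for plasma cell markers.

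Among the licensing factors, Cdc6, the loader of the Mcm ring, stood at 25.3 and 44.1 CPM in the naive libraries, 17.7 and 25.0 CPM in TAM-NIC and 23.5 and 11.0 CPM in TAM-IC. Mcm2, a subunit of that ring, stood at 152 and 223 CPM in the naive libraries, 100.2 and 147 CPM in TAM-NIC and 128 and 75.2 CPM in TAM-IC. For both genes naive 2 was highest and TAM-IC 2 lowest, and each TAM-IC value lay below both naive values. The remaining early factors, Cdt1 (the partner of Cdc6 in loading) and Cdc45 (which turns the ring into an active helicase), ranged over 32.7 to 57.7 and 15.3 to 64.4 CPM, with the groups overlapping between TAM-NIC and naive.

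Mcm3 had 154 and 234 CPM in the naive libraries, 162 and 126 CPM in TAM-NIC and 170.2 and 109 CPM in TAM-IC. Mcm6 (ENSMUSG00000026355.11, chr1:128331590-128359664, minus strand) had 248 and 363 CPM in the naive libraries, 208 and 184 CPM in TAM-NIC and 247 and 162 CPM in TAM-IC. For Mcm3 each TAM group had 1 library above naive 1 and 1 below it, and for Mcm6 in CPM all 4 TAM libraries lay below both naive libraries. Mcm5 had 159 and 250.3 CPM in the naive libraries, 121 and 113 CPM in TAM-NIC and 172 and 129.8 CPM in TAM-IC, and Mcm7 had 105 and 154 CPM in the naive libraries, 76.4 and 68.4 CPM in TAM-NIC and 105 and 75.6 CPM in TAM-IC. For these 2 subunits both TAM-NIC libraries lay below both naive libraries, and Mcm4, at 80.0 to 171 CPM over the 6 libraries, had the same order. Some exonic bases of Mcm7 are shared with Cops6 and Ap4m1 on the opposite strand. Reads on these bases cannot be told apart by gene, since the library kit does not mark strand. The same holds for Cdc45 with Ufd1, and the length shared was not measured.

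Pcna (ENSMUSG00000027342.14, chr2:132249162-132253314, minus strand) was singled out after its values were seen, because it did not follow most replication genes. Like Pcna, the members Cdt1, E2f1, Ccne1 and Ccne2 had their highest value in TAM-NIC 2. Pcna stood at 33.9 and 36.3 CPM in the naive libraries, 38.0 and 39.4 CPM in TAM-NIC and 37.2 and 32.9 CPM in TAM-IC. Its highest pair was TAM-NIC, where both libraries exceeded both naive libraries, and its whole range was 32.9 to 39.4 CPM. The pseudogenes Pcna-ps2 and Pcna-ps1 had 120 and 0 counts over the 6 libraries in all.

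For nucleotide supply, Rrm2 (ENSMUSG00000020649.11, chr12:24708241-24714146, plus strand) stood at 177 and 254 CPM in the naive libraries, 109 and 154 CPM in TAM-NIC and 237 and 121 CPM in TAM-IC. Its partner Rrm1, the large subunit of ribonucleotide reductase, stood at 182 and 254 CPM in the naive libraries, 139.6 and 153 CPM in TAM-NIC and 209.6 and 135 CPM in TAM-IC. For both, TAM-NIC libraries lay below the naive ones, and TAM-IC had 1 library above naive 1 and 1 below it. Tyms had 22.2 and 36.5 CPM in the naive libraries, 12.8 and 17.3 CPM in TAM-NIC and 27.0 and 17.2 CPM in TAM-IC, in the same arrangement. Tk1, the salvage kinase for thymidine, had 38.4 and 42.0 CPM in the naive libraries, 32.2 and 24.5 CPM in TAM-NIC and 32.3 and 19.1 CPM in TAM-IC, and all 4 TAM libraries were below both naive libraries; it shares exonic bases with Afmid.

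At the entry into S phase, E2f1, the activating E2F itself, stood at 51.1 and 58.0 CPM in the naive libraries, 45.7 and 60.2 CPM in TAM-NIC and 44.8 and 30.3 CPM in TAM-IC. Ccne1, cyclin E1, which activates Cdk2 to fire origins (ENSMUSG00000002068.16, chr7:38097984-38107534, minus strand), stood at 16.2 and 21.1 CPM in the naive libraries, 12.5 and 84.1 CPM in TAM-NIC and 16.0 and 7.78 CPM in TAM-IC. TAM-NIC 2 was the highest of the 6 libraries for both, slightly so for E2f1 and by a wide margin for Ccne1. Ccne2, cyclin E2, spanned 15.2 to 44.8 CPM, with TAM-NIC 2 highest as well, and shares exonic bases with Ints8. TAM-NIC 2 is the library with 9.13% immunoglobulin counts and with Myc, a gene named here after its values were seen, at 2801 CPM against 66.4 to 208 CPM in the other 5; the part of these in its Ccne1 level was not tested.

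Among mitotic cyclins, kinases and the machinery that degrades them, Ccnb2 (ENSMUSG00000032218.6, chr9:70407692-70421547, minus strand) stood at 90.0 and 122 CPM in the naive libraries, 59.6 and 65.2 CPM in TAM-NIC and 129 and 74.9 CPM in TAM-IC. Cdc20 (ENSMUSG00000006398.15, chr4:118432901-118437352, minus strand) stood at 92.4 and 131 CPM in the naive libraries, 56.4 and 90.9 CPM in TAM-NIC and 108 and 64.7 CPM in TAM-IC, and shares exonic bases with Elovl1 on the other strand. Ube2c, the ubiquitin-conjugating enzyme of the anaphase-promoting complex (ENSMUSG00000001403.13, chr2:164769898-164778822, plus strand), stood at 62.7 and 84.2 CPM in the naive libraries, 50.6 and 46.5 CPM in TAM-NIC and 94.6 and 65.5 CPM in TAM-IC. Ccnb2 and Ube2c were highest in TAM-IC 1, and for both genes the TAM-IC libraries lay above the TAM-NIC libraries without overlap, while Cdc20 overlapped between them.

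For the Aurora kinases the TAM-IC libraries also lay above the TAM-NIC libraries. Aurka, which builds the spindle poles, had 59.4 and 90.5 CPM in the naive libraries, 41.6 and 38.7 CPM in TAM-NIC and 80.4 and 49.983 CPM in TAM-IC. Aurkb, the kinase that corrects chromosome attachment, had 91.1 and 131 CPM in the naive libraries, 51.1 and 57.1 CPM in TAM-NIC and 101 and 66.9 CPM in TAM-IC. In both, the TAM-NIC libraries were the lowest 2 of the 6. Of the others, Ccna2 (cyclin A2) spanned 68.7 to 158 CPM, Ccnb1 (cyclin B1) 22.2 to 44.0 CPM, Cdk1 (the mitotic kinase) 41.2 to 80.2 CPM and Plk1 (a kinase of mitotic entry and spindle assembly) 45.7 to 94.8 CPM, each with its highest value in naive 2. Ccna2 shares exonic bases with Exosc9, Plk1 with the sparsely counted Gm44985, and the pseudogenes Ccnb1-ps and Ccnb2-ps had 17 and 115 counts over the 6 libraries.

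In the spindle, kinetochore and checkpoint set, Bub1b, a component of the checkpoint that delays anaphase, had 93.6 and 113 CPM in the naive libraries, 72.4 and 92.1 CPM in TAM-NIC and 112 and 77.0 CPM in TAM-IC. Tpx2, the activator of Aurka on microtubules, had 80.7 and 129.9 CPM in the naive libraries, 57.7 and 77.0 CPM in TAM-NIC and 106 and 65.7 CPM in TAM-IC. Kif23, a kinesin of the central spindle needed for cytokinesis (ENSMUSG00000032254.9, chr9:61915905-61946774, minus strand), had 90.1 and 105 CPM in the naive libraries, 51.5 and 47.0 CPM in TAM-NIC and 85.9 and 60.1 CPM in TAM-IC. In CPM both TAM-NIC values of Kif23 lay below both TAM-IC values and these below both naive values, while with TMM-scaled CPM (scaled by edgeR's trimmed mean of M-values, chosen after seeing the data) its TAM-IC and naive pairs overlapped. Bub1 (a checkpoint kinase), Birc5 (survivin, a partner of Aurkb), Kif11 (the kinesin that separates spindle poles), Cenpe and Cenpf (kinetochore proteins) ranged over 25.6 to 55.9, 32.3 to 64.7, 64.4 to 162, 22.9 to 58.7 and 19.7 to 67.3 CPM.

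Of the chromatin markers of proliferation, Mki67, the Ki-67 protein that coats mitotic chromosomes, stood at 86.0 and 121 CPM in the naive libraries, 33.1 and 89.9 CPM in TAM-NIC and 73.0 and 52.5 CPM in TAM-IC. Top2a, the topoisomerase that untangles sister chromatids, stood at 217 and 319 CPM in the naive libraries, 125 and 161 CPM in TAM-NIC and 269 and 143 CPM in TAM-IC. Both were highest in naive 2 and lowest in TAM-NIC 1. They differed in TAM-NIC 2, where Mki67 was above naive 1 and Top2a below it.

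TAM in contact were first compared with TAM not in contact, by edgeR's quasi-likelihood test with Benjamini-Hochberg adjustment over all genes tested. No member was called at an adjusted p under 0.05, and none of all genes was either (0.0%). At an unadjusted p under 0.05 there was 1 member, Ube2c, against 17.1% of all genes, and DESeq2 and limma-voom each called 0 members where they called 10.1% and 0.0% of all genes. The log2 fold change (TAM-IC over TAM-NIC) was below 0 in 11 of 36 members, where 50.1% of all genes were below 0. Its median was -0.037 over replication genes and 0.36 over mitotic genes, beside -0.0020 over all genes; the difference between the classes was not tested.

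Ube2c gave 0.73 ± 0.28 (SE), with a 95% interval of 0.05 to 1.41 and an adjusted p of 0.268 in edgeR. Its means were 80.0 ± 20.6 CPM (SD, n = 2) in TAM-IC and 48.6 ± 2.84 CPM (SD, n = 2) in TAM-NIC. Ccnb2 gave 0.72 ± 0.32 (SE) and Kif23 0.58 ± 0.26 (SE), with edgeR adjusted p of 0.321 and 0.321. Leaving out 1 library at a time, Ube2c ran from 0.50 to 0.95, Ccnb2 from 0.33 to 1.04 and Kif23 from 0.35 to 0.79. All 9 members of the mitotic cyclin, kinase and degradation set had fold changes above 0, and none passed the test.

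On the replication side the largest difference belonged to Ccne1, at -1.99 ± 0.84 (SE) with an edgeR adjusted p of 0.304. That value rested on TAM-NIC 2: without it the log2 fold change was -0.11, and without TAM-NIC 1, leaving TAM-NIC 2 alone, it was -2.77 with an adjusted p of 0.0258. Over the alternatives run its adjusted p ran from 0.00118 to 0.93. E2f1 gave -0.48 ± 0.27 (SE) and Tyms 0.57 ± 0.36 (SE), with edgeR adjusted p of 0.42 and 0.471, and ran from -0.74 to -0.25 and from 0.26 to 0.84 without 1 library. The sign of the replication median turned without single libraries: it stood at 0.13 without TAM-NIC 1, at 0.042 without TAM-NIC 2 and at 0.23 without TAM-IC 2. For the mitotic median the library TAM-IC 1 mattered most, as it stood at 0.038 without it, and at 0.57 and 0.65 without TAM-NIC 2 and TAM-IC 2.

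Both TAM-IC libraries lay above both TAM-NIC libraries in CPM for 9 members, against 24.4% of all genes: Mcm4 and Mcm5 of replication, and Aurka, Aurkb, Birc5, Ccnb2, Kif23, Plk1 and Ube2c of mitosis. They lay below them for E2f1 and Pcna (2 members, against 22.3% of all genes). As a share of the members both counts were close to or under the background. With TMM-scaled CPM 12 members lay above (against 24.2% of all genes) and 2 below (against 22.1%). For 30 of 36 members the fold change was smaller than the larger of the differences between replicates in the groups compared, which held for 64.2% of all genes.

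TAM in contact were next compared with naive macrophages. No member was called, beside 34 of 15522 genes (0.219%), 5 higher (0.0322%) and 29 lower (0.187%). No member had an unadjusted edgeR p under 0.05 either, against 14.6% of all genes, and DESeq2 and limma-voom each called 0 members (7.84% and 0.0% of all genes). The log2 fold change (TAM-IC over naive) was below 0 in 32 of 36 members, where 49.8% of all genes were below 0, with medians of -0.37 over replication genes, -0.22 over mitotic genes and 0.0040 over all genes.

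Mcm2 gave -0.74 ± 0.37 (SE) with a 95% interval of -1.63 to 0.16 and an edgeR adjusted p of 0.404. Cdc6 gave -0.86 ± 0.45 (SE) and Tk1 -0.50 ± 0.32 (SE), with edgeR adjusted p of 0.425 and 0.501. Mitotic members with the smallest p were Mki67 (-0.57 ± 0.48 (SE)), Kif23 (-0.27 ± 0.26 (SE)) and Ube2c (0.28 ± 0.28 (SE)), the last with its 95% interval from -0.40 to 0.95. Leaving out 1 library at a time moved these values widely: Mcm2 ran from -1.12 to -0.43, Cdc6 from -1.46 to -0.41, Tk1 from -0.88 to -0.20, Mki67 from -0.78 to -0.30, Kif23 from -0.50 to -0.070 and Ube2c from 0.035 to 0.50. The median differences depended on naive 2: without it the replication median stood at -0.071 and the mitotic median at 0.074, and without TAM-IC 2 the mitotic median stood at 0.11.

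Both TAM-IC libraries lay below both naive libraries in CPM for 11 members, against 36.7% of all genes, and above them for 0, against 23.0%. Of the 11, 9 were replication genes (Ccne1, Cdc45, Cdc6, Cdt1, E2f1, Mcm2, Mcm6, Mcm7 and Tk1) and 2 were mitotic (Kif23 and Mki67). With TMM-scaled CPM 4 members lay below (E2f1, Mcm2, Tk1 and Mki67, against 29.1% of all genes) and 1 above (Pcna, against 30.3%). In 33 of 36 members the fold change was smaller than the difference between replicates, against 49.3% of all genes.

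TAM not in contact were compared with naive macrophages last; this comparison shares its naive libraries with the previous one and its TAM-NIC libraries with the first. No member was called, and none of all genes was (0.0%). At an unadjusted edgeR p under 0.05 there were 2 members, Kif23 and Aurkb, against 15.2% of all genes, and limma-voom called 0 members and 0.0% of all genes. The log2 fold change (TAM-NIC over naive) was below 0 in 32 of 36 members, and in 19 of 19 mitotic ones, where 46.3% of all genes were below 0. Medians were -0.46 over replication genes, -0.62 over mitotic genes and 0.059 over all genes.

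Kif23 gave -0.85 ± 0.26 (SE) with a 95% interval of -1.47 to -0.22 and an edgeR adjusted p of 0.245. Its means were 49.3 ± 3.22 CPM (SD, n = 2) in TAM-NIC and 97.7 ± 10.8 CPM (SD, n = 2) in naive macrophages. DESeq2 called this 1 member, at -0.87 with an adjusted p of 0.0498 where it called 8.03% of all genes, and over the alternatives run the adjusted p ran from 0.0498 to 0.89. Aurkb gave -0.90 ± 0.30 (SE) and Aurka -0.76 ± 0.33 (SE), with edgeR adjusted p of 0.265 and 0.345. Without 1 library Kif23 ran from -0.98 to -0.75, Aurkb from -1.14 to -0.63 and Aurka from -1.03 to -0.44.

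Of the replication genes, Mcm7 gave -0.70 ± 0.29 (SE), Tyms -0.83 ± 0.37 (SE) and Mcm5 -0.66 ± 0.31 (SE), with edgeR adjusted p of 0.337, 0.357 and 0.382. Without 1 library they ran from -0.95 to -0.42, from -1.15 to -0.44 and from -0.96 to -0.31. The 4 members above 0 were Cdt1, Pcna, E2f1 and Ccne1, all of replication. Pcna gave 0.28 ± 0.21 (SE) with a 95% interval of -0.24 to 0.80. The mitotic median stood at -0.83, -0.34 and -0.41 without naive 1, naive 2 and TAM-NIC 1, and the replication median at -0.72 without naive 1 and -0.18 without naive 2. Both medians were below 0 in each of these fits.

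Both TAM-NIC libraries lay below both naive libraries in CPM for 26 members, 10 of replication and 16 of mitosis, against 28.9% of all genes. The 3 mitotic members that overlapped were Bub1, Cenpe and Mki67. With TMM-scaled CPM the count was 17, against 22.6% of all genes, made of 7 replication and 10 mitotic members. Pcna was the 1 member that lay above, on both scales (against 16.6% and 22.0% of all genes). The fold change was smaller than the difference between replicates in 21 of 36 members and in 66.1% of all genes.

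**Figure D3:**
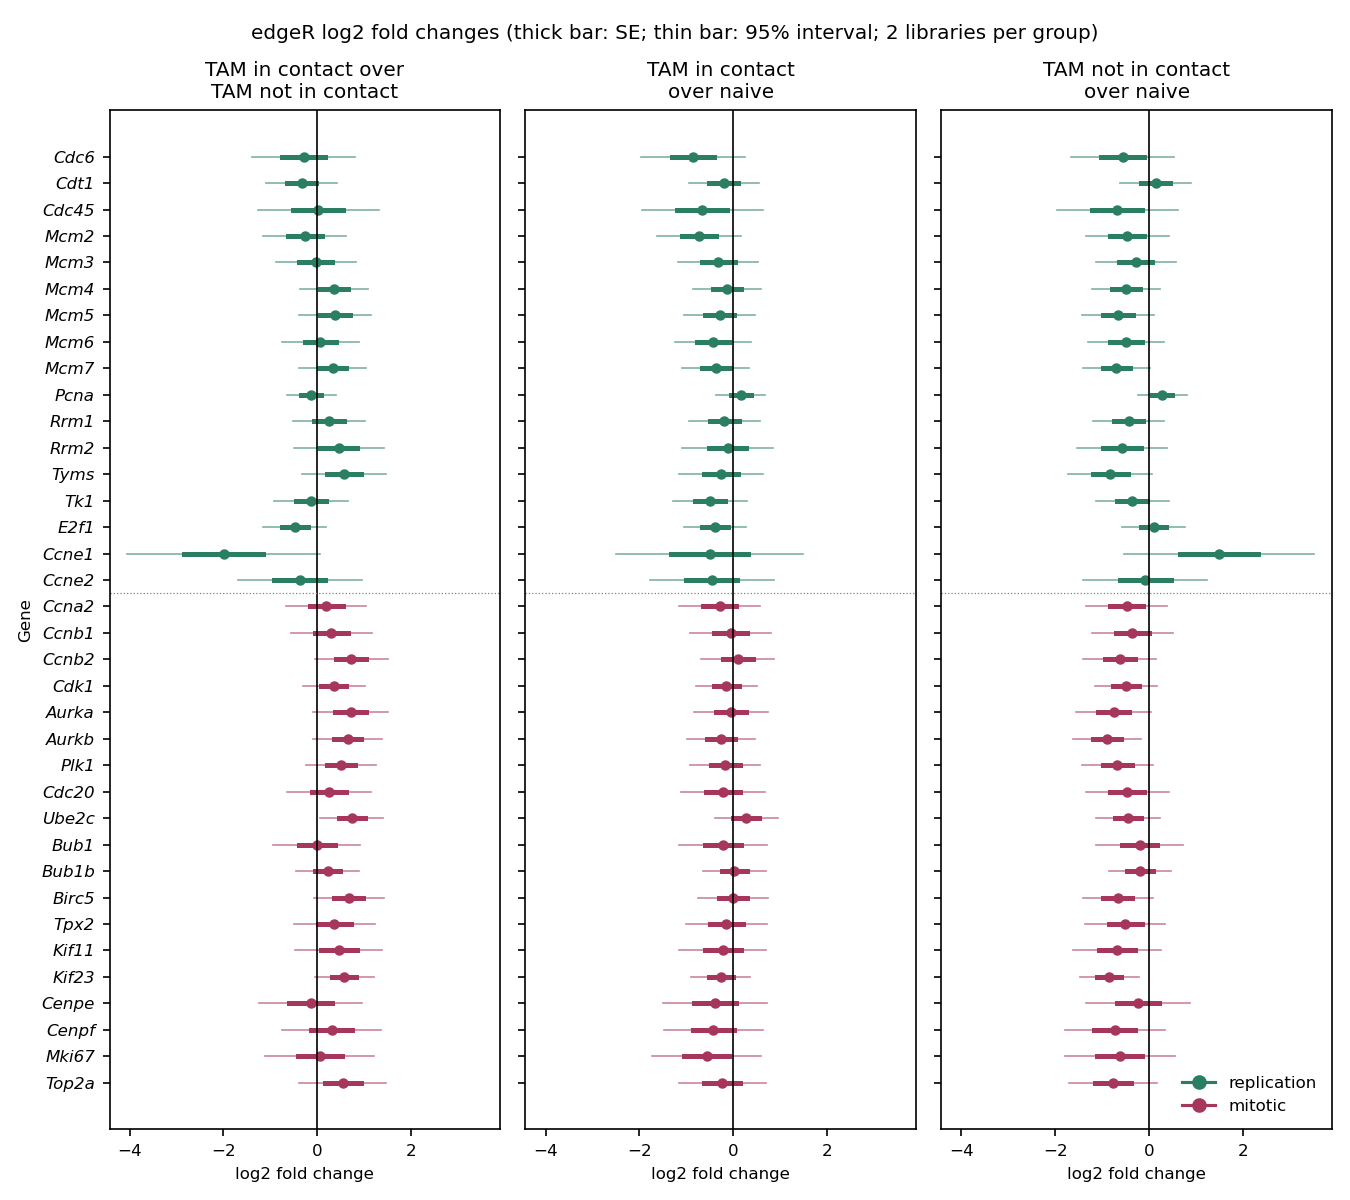
Each row is a member and each panel a comparison; points give the edgeR log2 fold change, thick bars its SE and thin bars its 95% interval, from 2 libraries in each group. Thin bars cross 0 for all members except Ube2c in the first panel and Kif23 and Aurkb in the last.

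**Figure D4:**
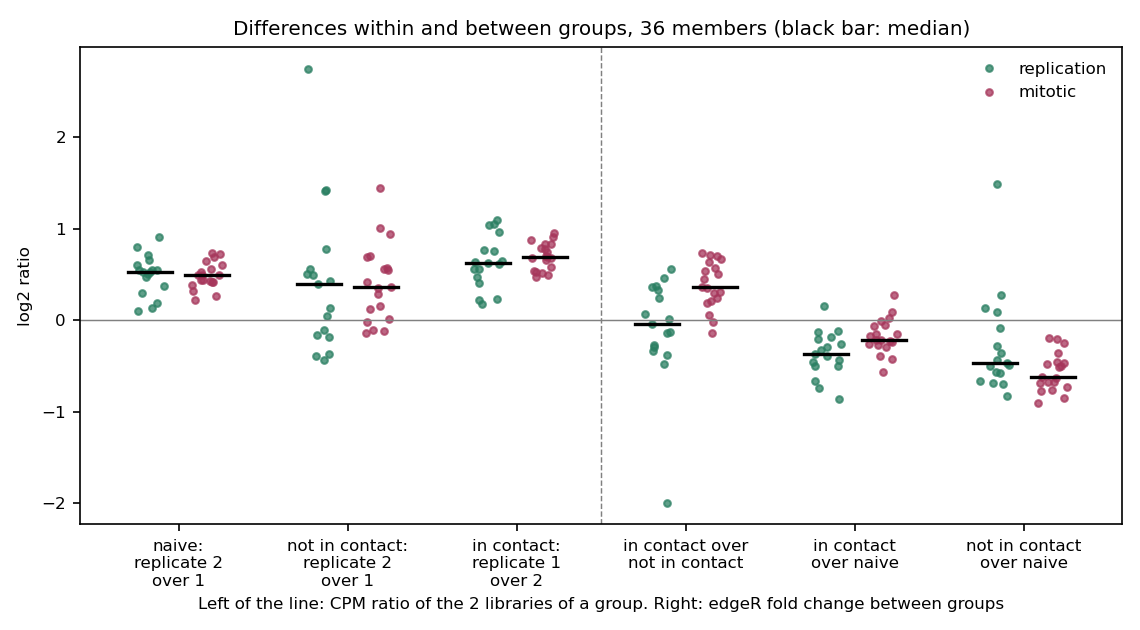
Left of the dashed line are log2 CPM ratios between the 2 libraries of each group, right of it the edgeR log2 fold changes between groups; each point is 1 of the 36 members and black bars are medians by class. Over all members the median log2 ratio is 0.50 within naive, 0.38 within TAM-NIC and 0.67 within TAM-IC, beside medians of 0.28, -0.24 and -0.49 between groups, and the mitotic points of TAM-NIC over naive all lie below 0.

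Other genes of the same pathways were listed by role. Of 34 other replication genes (polymerases, replication factors, origin proteins) 0 were called by edgeR in the 3 comparisons, where 3, 0 and 3 had an unadjusted p under 0.05 (against 17.1%, 14.6% and 15.2% of all genes), with medians of 0.14 for TAM-IC over TAM-NIC, -0.24 for TAM-IC over naive and -0.38 for TAM-NIC over naive. Of 43 other mitotic genes 0 were called, where 1, 1 and 6 had an unadjusted p under 0.05, no larger a share than over all genes, with medians of 0.30, -0.25 and -0.56 in the same order. In TAM-NIC over naive 42 of the 43 were below 0, against 46.3% of all genes. Cdc7, the kinase that fires licensed origins, stood at 26.5 and 43.4 CPM in the naive libraries, 6.17 and 11.9 CPM in TAM-NIC and 20.004 and 15.7 CPM in TAM-IC, which gave -1.82 ± 0.42 (SE) for TAM-NIC over naive (edgeR adjusted p 0.219). Kif15, a spindle kinesin, stood at 39.5 and 58.9 CPM in the naive libraries, 20.2 and 16.4 CPM in TAM-NIC and 41.7 and 24.3 CPM in TAM-IC and gave -1.28 ± 0.36 (SE) (edgeR adjusted p 0.234). For both genes the TAM-NIC pair was the lowest. DESeq2 called 3 genes of these lists, Cdc7, Kif15 and Cenpa, all lower in TAM-NIC than in naive macrophages (where it called 8.03% of all genes), and limma-voom called 0. Cdc7 and Kif15 had DESeq2 adjusted p of 0.00433 and 0.0304, and their ranges over the alternatives were 0.00165 to 0.89 and 0.0176 to 0.89. Cenpa, the histone of centromeres, stood at 72.1 and 84.7 CPM in the naive libraries, 40.1 and 42.8 CPM in TAM-NIC and 77.8 and 60.4 CPM in TAM-IC and gave 0.75 ± 0.23 (SE) for TAM-IC over TAM-NIC (edgeR adjusted p 0.213).

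Of 17 upstream regulators of G1 edgeR called 0 in each comparison, where 5, 1 and 5 had an unadjusted p under 0.05. The shares of all genes were 17.1%, 14.6% and 15.2%. DESeq2 called 4, 1 and 4 of them, where it called 10.1%, 7.84% and 8.03% of all genes, and limma-voom 0. Their medians were 0.24, -0.12 and -0.26 in the order above. Ccnd3, cyclin D3, stood at 496 and 668 CPM in the naive libraries, 152 and 194 CPM in TAM-NIC and 491 and 471 CPM in TAM-IC. E2f2, another activating E2F, stood at 125 and 144 CPM in the naive libraries, 33.4 and 58.1 CPM in TAM-NIC and 121 and 131 CPM in TAM-IC. For both genes the TAM-NIC libraries were the lowest pair and apart from the rest, and the TAM-IC libraries lay near naive 1. For TAM-IC over TAM-NIC, Ccnd3 gave 1.499 ± 0.31 (SE) and E2f2 1.49 ± 0.31 (SE), with edgeR adjusted p of 0.157 and 0.16, and for TAM-NIC over naive -1.62 ± 0.31 (SE) and -1.43 ± 0.31 (SE), both with an edgeR adjusted p of 0.219. DESeq2 called both genes in both comparisons. Over the alternatives the adjusted p of Ccnd3 ran from 3.2e-05 to 0.824 in the first comparison and from 4.92e-06 to 0.89 in the last, and that of E2f2 from 0.00217 to 0.824 and from 0.00325 to 0.89.

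Skp2, the ubiquitin ligase subunit that marks the inhibitor p27 for destruction, showed another order, with 89.8 and 57.6 CPM in the naive libraries, 52.9 and 63.2 CPM in TAM-NIC and 19.5 and 10.6 CPM in TAM-IC. Both TAM-IC libraries were below all others. The edgeR log2 fold change was -2.15 ± 0.38 (SE) for TAM-IC over naive and -1.94 ± 0.38 (SE) for TAM-IC over TAM-NIC, with adjusted p of 0.113 and 0.148, and DESeq2 called both, with adjusted p of 4.19e-05 and 0.000383. Over the alternatives these ran from 1.19e-05 to 0.758 and from 8.83e-05 to 0.824.

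Cell cycle inhibitors and quiescence genes were listed as 27, of which 25 were tested and 0 called by edgeR in each comparison, with medians of 0.16, 0.18 and -0.015. At an unadjusted p under 0.05 there were 6, 7 and 3 (against 17.1%, 14.6% and 15.2% of all genes), and DESeq2 called 2, 4 and 2 (against 10.1%, 7.84% and 8.03%) and limma-voom 0. Cdkn1a, which encodes the kinase inhibitor p21, stood at 6.46 and 6.23 CPM in the naive libraries, 26.5 and 75.3 CPM in TAM-NIC and 49.9 and 57.5 CPM in TAM-IC. All 4 TAM libraries were above both naive libraries. The edgeR log2 fold change was 3.24 ± 0.51 (SE) for TAM-IC over naive and 3.13 ± 0.51 (SE) for TAM-NIC over naive, with adjusted p of 0.09 and 0.219. DESeq2 called both, with adjusted p of 4.87e-07 and 2.83e-06, and over the alternatives the values ran from 3.39e-09 to 0.73 and from 1.34e-08 to 0.89.

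Btg1, an antiproliferative gene of resting blood cells, stood at 166 and 219 CPM in the naive libraries, 295 and 449 CPM in TAM-NIC and 482 and 681 CPM in TAM-IC, again with all TAM libraries above the naive pair. Its edgeR log2 fold change was 1.76 ± 0.38 (SE) for TAM-IC over naive (adjusted p 0.156).

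Immunoglobulin genes took 67.3% and 70.4% of the counts of the plasma cell libraries, which lowers the CPM of all other genes there. Both plasma cell values were under the lowest macrophage value in 35 of 36 members by CPM, the exception being Ccne1 at 11.2 and 8.61 CPM, against 68.8% of the 15324 genes tested in macrophages whose symbol is single in both tables. In CPM of the counts outside immunoglobulin genes the number was 13 of 36, made of 7 replication and 6 mitotic members, against 30.6% of those genes, so on that scale the members' share was near the background. The tables were counted separately, so levels set across them are descriptions.

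Between the plasma cell libraries the mitotic members differed more than the replication members. Plasma cell library 2 exceeded library 1 in 31 of 36 members, by a median ratio of 1.75 over replication genes and of 4.67 over mitotic genes. Over the 13164 of these genes with counts in both libraries, library 2 was the higher in 37.3% and the median ratio was 0.797. Ube2c stood at 4.35 and 45.7 CPM in libraries 1 and 2, a ratio of 10.5, and Rrm2 at 19.5 and 92.1 CPM. Mki67 stood at 10.1 and 24.4 CPM and Top2a at 7.47 and 23.2 CPM. Mcm6 and Mcm2, at 41.0 and 39.1 CPM and 23.8 and 22.2 CPM, were nearly level, and with E2f1 (20.7 and 9.60 CPM), Ccne1 and Bub1b (15.1 and 11.0 CPM) they were the 5 members lower in library 2. Mitotic genes summed to 89.2 and 354 CPM and replication genes to 212 and 334 CPM, so the ratio of mitotic to replication CPM was 0.420 in library 1 and 1.06 in library 2. In CPM of the counts outside immunoglobulin genes the mitotic sums were 272 and 1196 and the replication sums 649 and 1130. The labels do not tell these 2 libraries apart by condition, and the difference has no replicate check.

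**Figure D5:**
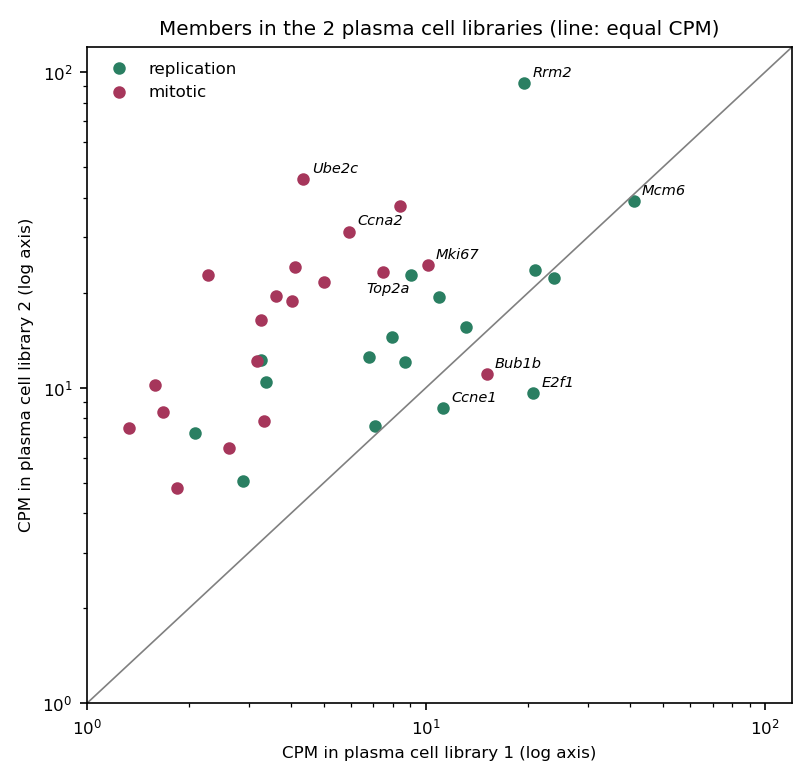
Each point is a member, with its CPM in plasma cell library 1 on the x axis and in library 2 on the y axis, both logarithmic, and the line marks equal CPM. Mitotic genes lie farther above the line than replication genes, and 5 members lie below it.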

How the data were processed

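The members, lists and tests were chosen with earlier results of these data known. The authors deposited unnormalised read counts by gene, in 1 table of 6 macrophage libraries and 1 of 2 plasma cell libraries, made with the SMART-Seq v4 kit per the labels' protocols; 0 columns lacked a sample. STAR, featureCounts, DESeq2 1.26, mm10 and GRCm38 are named in the submitters' processing notes. Annotation release, strand setting and handling of multiply mapped reads: not given in the sources used here.

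Identifiers were matched to GENCODE M21 (47224 of 47643; unmatched ones took 0.117% of counts or less in each library; 48081 of 52458 plasma cell entries by symbol). Genes were kept by filterByExpr (minimum count 10, minimum total 15), scaled by TMM and tested in 1 quasi-likelihood fit of the 6 macrophage libraries, with 3 residual degrees of freedom, in edgeR 4.0.16 (R 4.3.3), with Benjamini-Hochberg adjusted p under 0.05 called. DESeq2 1.42.0, limma-voom (limma 3.58.1), other scalings and filters, the 4 libraries compared alone, a replicate block and leaving out each library were alternatives. Other steps used Python 3.11.15. The main edgeR fit was also run on simulated counts with planted changes. These were larger than any member's fold change, so that run says nothing on changes of the members' size. CPM divides by a library's total count.

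Members given by library were the 2 highest per kilobase in each role and the 3 replication and 3 mitotic members with the smallest p in each comparison; of other pathway genes, those with the 3 smallest p in each list and comparison could be named.

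The mouse numbers of TAM libraries were checked for pairing: deviations of mouse 1 from the group mean correlated at 0.175 over 15522 genes and -0.37 over the members, and Xist and Ddx3y set the libraries numbered 2 apart, so the numbers were not used to pair samples. A gene that the naming rule selects is not reported here.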

Additional observations from a re-analysis of the deposited data

How the results depend on the processing

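Depth was 28887725 to 46873056 counts and no member was at 0 in a library, and precision is limited by having 2 libraries in each group. Leaving out 1 library in turn gave 0 to 1 members called for TAM-IC over TAM-NIC and 0 to 0 in the other comparisons. The range of the median log2 fold change was -0.23 to 0.23, -0.63 to -0.071 and -0.72 to -0.18 for replication members (TAM-IC over TAM-NIC, TAM-IC over naive, TAM-NIC over naive) and 0.038 to 0.65, -0.51 to 0.11 and -0.83 to -0.34 for mitotic members. The replication median for TAM-IC over TAM-NIC turned to 0.13, 0.042 and 0.23 without TAM-NIC 1, TAM-NIC 2 and TAM-IC 2. The mitotic median for TAM-IC over naive turned to 0.074 without naive 2 and 0.11 without TAM-IC 2. For replication members TAM-IC over naive gave -0.071 without naive 2. Mitotic members gave 0.57, 0.038 and 0.65 for TAM-IC over TAM-NIC without TAM-NIC 2, TAM-IC 1 and TAM-IC 2, and -0.83, -0.34 and -0.41 for TAM-NIC over naive without naive 1, naive 2 and TAM-NIC 1. Where a library was left out, the lone library of its group was taken to vary like the other groups; the cause of the turns was not tested.

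Without a low-count filter edgeR called 1 member (Ccne1) for TAM-IC over TAM-NIC and 1 (Ccne1) for TAM-NIC over naive, and DESeq2 called 1 (Kif23) for TAM-NIC over naive; the cause was not tested. With TMM-scaled CPM, chosen after seeing the data, the members whose libraries did not overlap numbered 1 higher and 4 lower for TAM-IC over naive and 17 lower for TAM-NIC over naive. With 250 bases before the start only, 8 mitotic promoters held the CHR and 6 replication promoters an E2F form, since the window is shorter. Scaling by library totals only moved the median of all genes by -0.16 for TAM-IC over naive and by -0.14 for TAM-NIC over naive.

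With the mouse number as a replicate block, 0 members were called for TAM-IC over TAM-NIC, with medians of -0.050 over replication and 0.35 over mitotic members. Of the values for single genes under the alternatives, 726 kept their side of the threshold and 48 passed it, with no sign turned.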
